A study of Mus musculus with 4 samples.

Results

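The nuclear-encoded subunits of the mitochondrial respiratory chain were examined in natural killer (NK) cells of mice without the GABP tetramer. They were chosen by gene symbol alone: the Nduf subunits of complex I, the Sdh subunits of complex II, the Uqcr subunits and Cyc1 of complex III, the Cox4 to Cox8 subunits of complex IV, and Cycs, which encodes the carrier cytochrome c. The rule found 70 symbols among 37310 genes: 37 of complex I, 4 of complex II, 9 of complex III, 18 of complex IV, Cycs, and Cox4nb. Cox4nb is a neighbour of Cox4i1 that matches the pattern by its name. It is listed as Emc8 in current annotation and is no subunit, so it is counted with the members but placed in no complex. Ndufb8 is listed under 2 gene IDs, of which the one with 0 counts in every library was left out.

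The respiratory chain moves electrons from NADH (complex I) and succinate (complex II) through complex III and cytochrome c to oxygen (complex IV), and pumps protons as it does so. Most of its subunits are encoded in the nucleus, while a few catalytic core subunits of complexes I, III and IV are encoded by mitochondrial DNA. GABP, also called nuclear respiratory factor 2, is an Ets-family transcription factor long known from its binding sites in promoters of cytochrome oxidase genes. Its alpha subunit binds DNA, and a beta subunit with a leucine zipper lets a pair of heterodimers join as a tetramer.

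RNA came from bone marrow NK cells of C57BL/6 mice aged 6 to 8 weeks, sorted as CD3e-NK1.1+CD49b+ cells. The 2 Ctrl libraries are from littermates whose own alleles are not specified in the labels, and the 2 dKO libraries are from mice of the genotype Gabpb1l-/-Gabpb2-/-, in which Gabpb2 and the long isoform of Gabpb1 are both disrupted. The labels name no promoter or Cre driver, and the deletion was not said to be limited to NK cells. Each group has 2 biological replicates, per the series design.

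Gene counts summed to between 30233870 and 34724516 per library. For the targeted Gabpb2, the Ctrl libraries held 1244 and 1009 counts, against 85 and 86 in dKO (edgeR log2 fold change -3.61, SE 0.26, adjusted p = 0.00126). Gabpb1 had 1945 and 1727 counts in Ctrl against 2609 and 2400 in dKO (edgeR log2 fold change 0.56, SE 0.17, adjusted p = 0.273), and a count over the whole gene cannot check its long form. The libraries also differed in sex chromosome transcripts: Xist had 6066 and 6430 counts in Ctrl against 2 and 9 in dKO, and the Y-linked Ddx3y, Kdm5d, Eif2s3y and Uty were at 0 in each Ctrl library, with 8933 and 6757 counts of Ddx3y in dKO. Genotype and these transcripts cannot be told apart in any comparison here. All 10 NK cell markers examined were detected, with a summed level of 14721 to 14774 CPM (counts scaled to library size) in Ctrl and 11877 to 11940 CPM in dKO. The 8 T cell markers summed to 208 to 222 CPM in Ctrl against 47.9 to 75.9 CPM in dKO, and 2 of them, Cd3e and Trac, passed the test as lower in dKO. Markers of the B lineage (8 genes) summed to 106 to 238 CPM in Ctrl and 106 to 133 CPM in dKO, those of neutrophils and their precursors (10 genes) to 2100 to 2715 and 1349 to 2161 CPM, and erythroid genes (7) to 389 to 573 and 295 to 532 CPM. None of these markers was at 0 in every library, and their part in the results below was not tested. In such bulk RNA, fewer cells of a type and less RNA per cell cannot be told apart.

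Promoter sequences are shown first because GABP acts there. RefSeq windows (GRCm38.p6, 250 bases before to 50 after a transcription start) were matched by symbol to 55 of the 70 members. The letters CCGGAAG, the core that GABP alpha and other Ets factors recognise, were searched on both strands. They stood in the windows of 11 of the 55 members (20.0%), against 9.93% of all 27025 genes with a window. These 11 were Cox6a1, Cox6b1, Cox8a, Ndufb6, Ndufb7, Ndufs3, Ndufs8, Sdhb, Sdhd, Uqcr11 and Uqcrh, and in 9 of them the core began within 50 bases of the start. The shorter CGGAAG, which every CCGGAAG contains, was found in 18 of 55 members (32.7%) and 18.8% of all genes. For other factors known from respiratory genes, the NRF1 palindrome (GCGCA followed at once by its reverse complement TGCGC) was found in 3 members (5.45%, all genes 1.07%) and the YY1 core AAGATGGCG in 5 (9.09%, all genes 1.64%). The shares over all genes take in genes that were not tested here, and shares over tested genes alone were not computed. A match of letters is a description and not a bound site.

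The stretches below carry the Ets core in members whose expression is described next, with the core in capitals and each strand read 5′ to 3′ in the direction of transcription. CTTCCGG is CCGGAAG read on the other strand. The first pair covers the 150 bases before the start of Uqcrh (chr4:116075071-116075220, minus strand) and of Sdhd (chr9:50603850-50603999, minus strand). The second pair is a 30-base stretch of Sdhb (chr4:140961266-140961295, plus strand) and of Cox5b (chr1:36691477-36691506, plus strand), where the core lies just after the start. Cox5b holds only the shorter core.
Uqcrh: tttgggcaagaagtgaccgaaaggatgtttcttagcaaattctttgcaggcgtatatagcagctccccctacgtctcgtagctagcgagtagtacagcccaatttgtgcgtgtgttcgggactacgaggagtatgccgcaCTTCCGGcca
Sdhd: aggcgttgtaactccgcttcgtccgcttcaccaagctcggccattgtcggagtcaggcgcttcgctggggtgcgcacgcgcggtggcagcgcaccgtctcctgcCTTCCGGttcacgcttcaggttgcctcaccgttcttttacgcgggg
Sdhb: gctcggagaaaCCGGAAGcggccttccact
Cox5b: cggggcaggaagCGGAAGactgaccgggcg

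None of the respiratory chain genes differed between Ctrl and dKO at the threshold. Of the 70 members, 65 passed the filter on low counts, all but Cox4i2, Cox7a1, Cox7b2, Cox8b and Cox8c, and 0 of these had an edgeR adjusted p under 0.05, where 0.611% of all 13904 tested genes did. The unadjusted p was under 0.05 for 1 member, Cox5b, against 10.6% of all tested genes. DESeq2, which called 2.84% of all genes, and limma-voom, which called 0.654%, also called 0 members, and each gave 1 an unadjusted p under 0.05. Fold changes were small and lay on both sides of 0: 36 members were above 0 and 29 below, with a median log2 fold change of 0.02, and 51.6% of all tested genes were above 0 with a median of 0.01. The summed level of the 64 tested members without Cox4nb was 4090 ± 270 CPM in Ctrl and 4086 ± 452 CPM in dKO (SD, n = 2).

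How large a difference the data still allow depended on the level of the gene. For 47 of the 65 members the 95% interval of the log2 fold change lay between -1 and 1, so that a 2-fold difference in either direction was outside it; this held for 52.3% of all tested genes. The other 18 were mostly members with few counts, such as Ndufa1, Ndufb6, Ndufs5 and Cox6b2. They also included Cox5b, Ndufab1 and Cox7a2l, which were well counted. The groups did not overlap in 14 members, 8 with both dKO libraries above Ctrl and 6 below, which is 21.5% of the 65, against 41.6% of all tested genes. With 2 libraries a group, an exact two-sided permutation test of a single value cannot go below p = 0.333, so separation alone is no call.

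**Figure D1:**
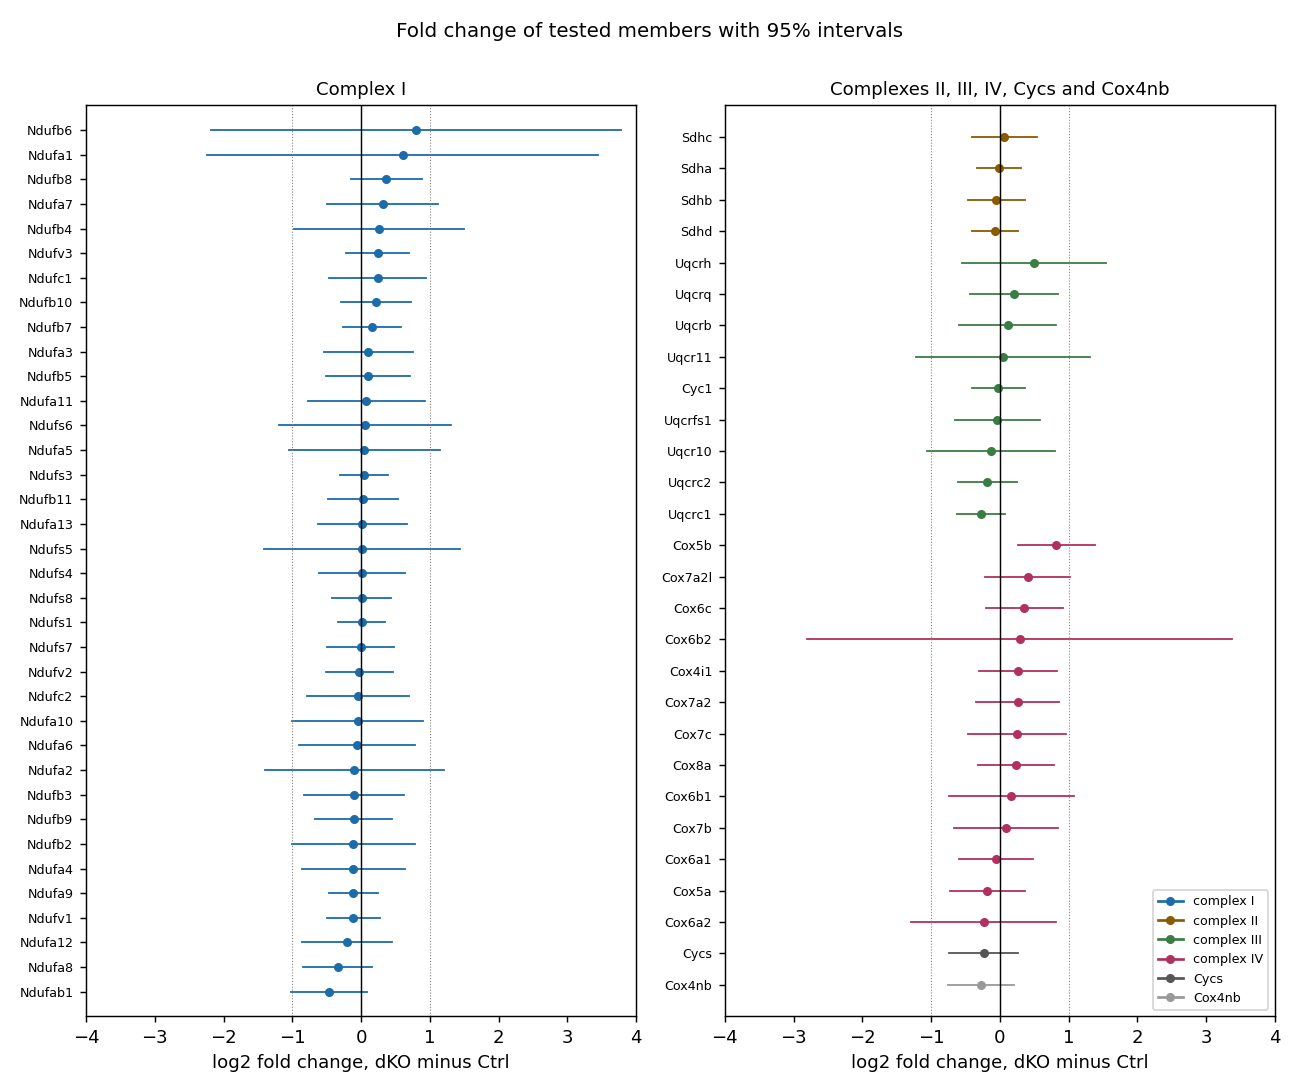
Log2 fold change (dKO minus Ctrl, x axis) of the tested members, 1 of complex I left out, with the 95% interval from edgeR as a line and colours for the complexes. Dotted lines mark -1 and 1. All intervals drawn but that of Cox5b (0.26 to 1.38) include 0, and the widest belong to Cox6b2, Ndufb6 and Ndufa1.

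Complex I is the NADH dehydrogenase, and its 7 nuclear core subunits include those that carry the flavin and the iron-sulfur clusters. Their log2 fold changes had a median of -0.0049, with 3 above 0 and 4 below, and for all 7 the 95% interval lay between -1 and 1. Ndufs1, the large iron-sulfur subunit gene, was at 152 and 152 CPM in the Ctrl libraries against 157 and 149 CPM in dKO (edgeR log2 fold change 0.01, SE 0.15). Ndufv1, the flavin-binding subunit gene, was at 86.9 and 92.02 CPM in Ctrl against 77.2 and 87.99 CPM in dKO (-0.11, SE 0.17). In both the groups overlapped. The lowest level per transcript length among the tested members of the complex was that of the accessory subunit gene Ndufa10, at 1.92 TPM (RSEM's level scaled for transcript length and library size) on average over the 4 libraries.

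The 30 accessory subunits of complex I, which help to assemble and stabilise the enzyme, spread more widely around the same centre, from -0.46 to 0.80 with a median of 0.02. At the low end was Ndufab1, which encodes the mitochondrial acyl carrier protein. Its level was 35.2 and 24.98 CPM in the Ctrl libraries against 22.9 and 20.8 CPM in dKO. Both dKO libraries were below both Ctrl libraries, but the threshold was missed (edgeR log2 fold change -0.46, SE 0.24, adjusted p = 0.571). Ndufa8 (log2 fold change -0.34, SE 0.22) likewise had both dKO libraries lower, at 25.98 and 29.98 CPM against 39.6 and 31.3 CPM in Ctrl.

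In the other direction, Ndufb8, a membrane arm subunit, was at 22.2 and 19.9 CPM in the Ctrl libraries against 30.03 and 24.2 CPM in dKO. Its groups did not overlap, and the log2 fold change was 0.36 (SE 0.22, edgeR adjusted p = 0.650). Ndufv3, an accessory subunit of the NADH-oxidising end, was at 60.5 and 59.8 CPM in the Ctrl libraries against 59.9 and 82.2 CPM in dKO, where only dKO 2 stood above the rest. In all, 7 of the 37 complex I members had groups that did not overlap (18.9%, against 41.6% of all tested genes), all of them accessory: besides those above, Ndufa7, Ndufb7 and Ndufc1 were higher in both dKO libraries, with log2 fold changes from 0.16 to 0.32, and Ndufa9 was lower (-0.11, SE 0.15). None passed. By symbol Ndufa4 is counted here, although its protein is found in complex IV. Its log2 fold change was -0.11 (SE 0.33).

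Complex II, succinate dehydrogenase, is the complex with no mitochondrially encoded subunit, and with the fewest members it had the narrowest range of fold changes. The flavoprotein gene Sdha was at 640 and 609 CPM in the Ctrl libraries against 608 and 633 CPM in dKO (edgeR log2 fold change -0.01, SE 0.14, 95% interval -0.34 to 0.32). Sdhb, the iron-sulfur subunit gene whose Ets core is printed above, was at 62.4 and 57.6 CPM in the Ctrl libraries against 54.1 and 61.8 CPM in dKO (log2 fold change -0.05, 95% interval -0.46 to 0.36). For both the groups overlapped. The membrane anchor genes Sdhc and Sdhd had log2 fold changes of 0.07 (SE 0.20) and -0.07 (SE 0.14). Sdhd, the other printed promoter of this complex, was at 283 and 278 CPM in the Ctrl libraries against 259 and 275 CPM in dKO. Its groups did not overlap, and its 95% interval was -0.40 to 0.26. Sdhd had the highest level per length of the 4 genes (428 TPM) and Sdhc the lowest (93.1 TPM).

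Complex III passes electrons from ubiquinol to cytochrome c. Its 4 core and redox subunits, Uqcrc1, Uqcrc2, Uqcrfs1 and Cyc1, had log2 fold changes from -0.27 to -0.02, and its 5 tested accessory subunits from -0.13 to 0.50. Uqcrc1, a core protein gene, was the most abundant member of the complex per length (676 TPM), and was at 615 and 692 CPM in the Ctrl libraries against 567 and 516 CPM in dKO. Both dKO libraries were lower, and the threshold was missed (edgeR log2 fold change -0.27, SE 0.15, adjusted p = 0.603, 95% interval -0.62 to 0.07). The summed CPM of the 9 members, 1009 ± 4.05 in Ctrl and 887 ± 2.90 in dKO (SD, n = 2), differed by more than the spread of either pair, and had Uqcrc1 as its largest part. The mean of Uqcrc1 alone went from 654 to 542, with SDs of 54.2 for the Ctrl pair and 36.6 for the dKO pair. Its order ran against the rest in Ctrl, where 8 of the 9 members were higher in Ctrl 1, so the small SDs of the sum reflect members that cancel. With 4 of the 9 fold changes above 0, the sum shows no fall shared across the complex. Uqcrc2, the other core protein gene, was at 108 and 93.4 CPM in the Ctrl libraries against 77.6 and 100.3 CPM in dKO (edgeR log2 fold change -0.18, SE 0.19), and the groups overlapped. Cyc1, which encodes the haem-bearing cytochrome c1, had a log2 fold change of -0.02 (SE 0.17), and Uqcrfs1, the Rieske iron-sulfur protein gene, one of -0.04 (SE 0.27). Of the accessory genes, Uqcrq (0.21, SE 0.28), Uqcrb (0.11, SE 0.31), Uqcr11 (0.04, SE 0.55) and Uqcr10 (-0.13, SE 0.40) had overlapping groups.

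Uqcrh encodes the hinge protein of complex III, and it was the member with the lowest level per length in that complex (12.3 TPM). It was at 4.90 and 2.20 CPM in the Ctrl libraries against 4.98 and 5.06 CPM in dKO. The groups did not overlap, but Ctrl 2 alone was low and Ctrl 1 lay next to the dKO libraries, and the log2 fold change of 0.50 (SE 0.46, edgeR adjusted p = 0.786) was 0.03 without Ctrl replicate 2. The carrier gene Cycs was at 66.1 and 46.1 CPM in the Ctrl libraries against 47.9 and 47.5 CPM in dKO. Here Ctrl 1 alone was high (edgeR log2 fold change -0.23, SE 0.22, adjusted p = 0.789). Cox4nb, which belongs to no complex, was lower in both dKO libraries without passing (-0.28, SE 0.21).

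Complex IV, cytochrome c oxidase, reduces oxygen, and its nuclear subunits surround a catalytic core encoded by mitochondrial DNA. It was the complex with the highest median, 0.25 over 13 tested members, of which 10 were above 0 and 3 below. Over all tested genes under 1000 bases the median was 0.11 with 59.7% above 0, against 0.0012 and 50.2% in longer genes. The part of length was not tested here, and the median transcript length of the 13 members was 627 bases. None of these members was called in edgeR. The summed level was 660 ± 112 CPM in Ctrl and 816 ± 264 CPM in dKO (SD, n = 2), a difference within the spread of the dKO libraries. Cox7a2l was the largest part of this sum, with a mean of 360 CPM in Ctrl and 477 CPM in dKO. Its SD was 202 CPM for the dKO pair. The median log2 fold change of complex IV was 0.14 after a trend with transcript length was removed. It was 0.08 without Ctrl replicate 2 and -0.09 without dKO replicate 2, so 1 library set its sign.

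Cox5b, a zinc-binding subunit on the matrix side of the oxidase, lay furthest from 0 of the 65 tested members. Its level was 17.4 and 12.8 CPM in the Ctrl libraries against 27.4 and 26.1 CPM in dKO, and both dKO libraries stood above both Ctrl libraries. The log2 fold change was 0.82 (SE 0.24, unadjusted p = 0.00943, edgeR adjusted p = 0.261 over all 13904 genes), with a 95% interval of 0.26 to 1.38. Leaving out each library gave log2 fold changes between 0.62 and 1.06. The size depended on how reads were counted: the RSEM table gave 140 and 109 expected counts in Ctrl and 149 and 182 in dKO, for a log2 fold change of 0.56 (SE 0.32, adjusted p = 0.620). The whole-number counts of Cox5b were 4.63 times its expected counts, where the typical gene had a ratio of 2.06. On GRCm38, Cox5b (ENSMUSG00000061518) lies on chromosome 1 from 36691449 to 36693681.

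The next members of complex IV by p were Cox7a2l, Cox6c and Cox4i1. Cox7a2l had the highest level per length of all members at 843 TPM. It was at 392 and 329 CPM in the Ctrl libraries against 335 and 620 CPM in dKO, so dKO 2 alone was high (edgeR log2 fold change 0.41, SE 0.27, adjusted p = 0.678, and -0.11 without dKO replicate 2). Cox6c was at 34.3 and 22.5 CPM in the Ctrl libraries against 35.7 and 37.1 CPM in dKO. Its groups did not overlap, but Ctrl 1 lay close to dKO (log2 fold change 0.36, SE 0.24, and 0.09 without Ctrl replicate 2). Cox4i1 (log2 fold change 0.26, SE 0.24) was at 53.9 and 41.9 CPM in the Ctrl libraries against 46.0 and 69.2 CPM in dKO, and the groups overlapped.

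**Figure D2:**
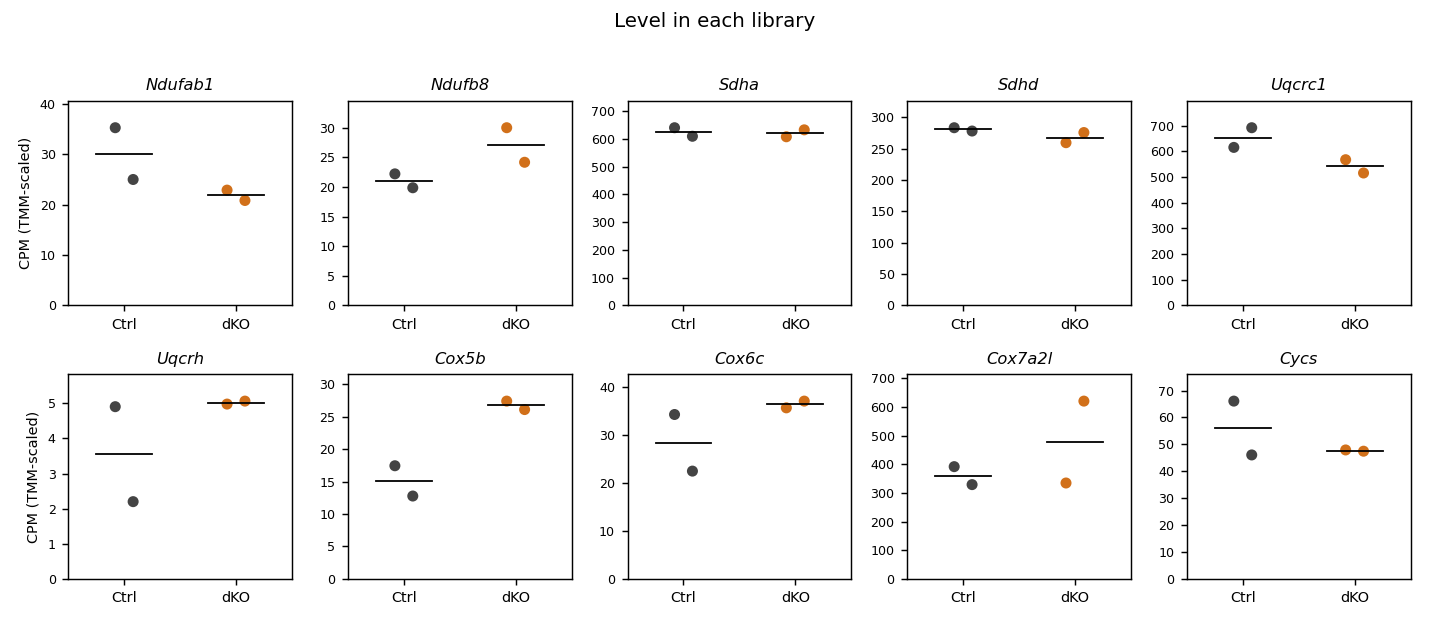
CPM after TMM scaling (y axis, from 0) of 10 members in the Ctrl (grey) and dKO (orange) libraries, each point 1 library and each bar the mean of 2. Cox5b, Ndufb8 and Cox6c have both dKO points above both Ctrl points, Ndufab1 and Uqcrc1 have them below, and Sdha lies between 608 and 640 in every library.

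Several subunits of complex IV exist as isoforms with different tissue patterns, and in these libraries the widely expressed form of each pair made up nearly all of the level per length. Cox4i1 made up 99.7% to 100% of the TPM of Cox4i1 and Cox4i2 in each library, and Cox4i2 had 2 to 7 counts. Cox6a1 made up 97.2% to 98.5% of the Cox6a pair, with the heart and muscle form Cox6a2 at 5.86 to 11.3 TPM. Cox6b1 made up at least 98.6% of its pair, and the testis form Cox6b2, with 2 to 11 counts, had the lowest mean TPM of the tested complex IV members (0.19). The ubiquitous Cox7a2 was at 52.95 to 89.3 TPM, and the muscle form Cox7a1 had 2 to 11 counts and was listed at 0 TPM in every library. For Cox8, 0 counts were found in every library for the muscle form Cox8b and for the testis form Cox8c. A count of 0 allows up to 3 counts, or 0.0881 to 0.0992 CPM by library, for counting error alone. Cox7b2 had 1 count in all 4 libraries together, whereas Cox7b had 245 to 371.

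None of the expressed isoforms differed between the groups at the threshold. Cox6a1 (log2 fold change -0.06, SE 0.23), Cox6b1 (0.17, SE 0.40), Cox7a2 (0.26, SE 0.26), Cox7b (0.09, SE 0.33) and Cox8a (0.24, SE 0.24) had overlapping groups. The share of Cox6a2 in its pair was 2.28% and 2.75% in Ctrl against 1.45% and 1.88% in dKO, from 20 to 47 expected counts per library. The fold change of Cox6a2 itself had a 95% interval of -1.30 to 0.83, which includes 0.

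**Figure D3:**
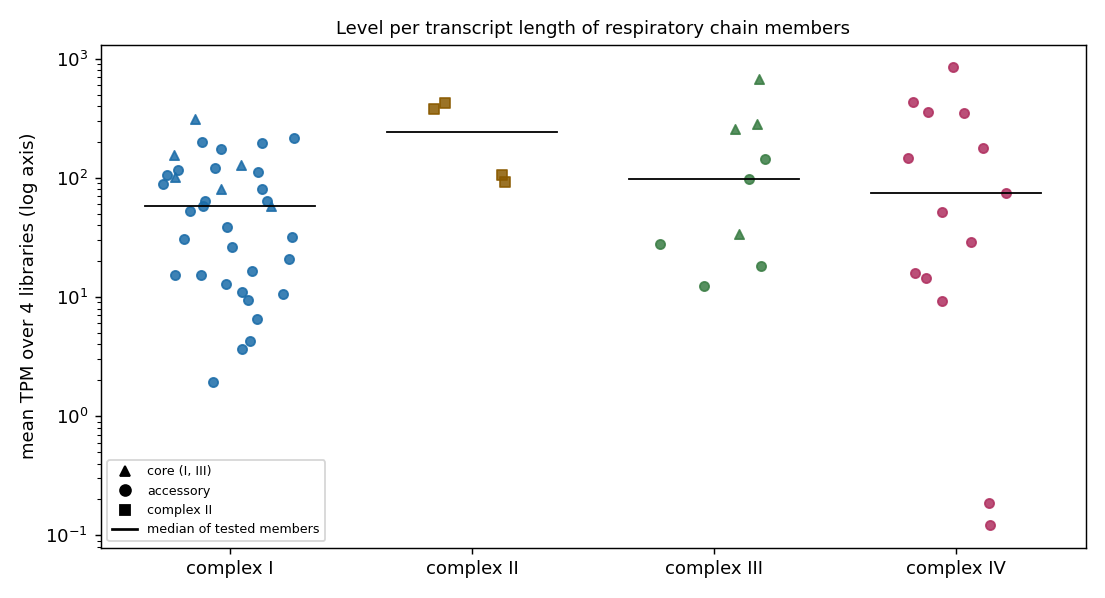
Mean TPM over the 4 libraries (log axis) of the members by complex, 1 of complex I left out, with triangles for core subunits of complexes I and III, circles for accessory subunits, squares for complex II and a bar at the median of tested members. Medians run from 58.1 TPM in complex I to 242 TPM in complex II, and 4 members of complex IV listed at 0 TPM are not drawn.

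Levels per length differed widely among the members. The 7 core subunits of complex I had a median of 129 TPM and the 30 accessory subunits 35.005 TPM. Most members have short transcripts, 41 of the 65 under 1000 bases.

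Within each group the members tended to share an order of libraries. Ctrl 1 was above Ctrl 2 in 54 of the 65 members and dKO 2 above dKO 1 in 46. Both orders together held in 41 members (63.1%), where 26.9% of all tested genes showed both. Other sets showed it too: 12 of 16 ATP synthase genes (75.0%) and 19 of 46 assembly factors (41.3%) had both orders, as did 37.5% of all tested genes under 1000 bases. This pattern was picked out after the values were seen. On the log2 scale, the median deviation of the members from their own 4-library mean was 0.13 for Ctrl 1, -0.14 for Ctrl 2, -0.12 for dKO 1 and 0.16 for dKO 2, while over all tested genes these medians lay between -0.01 and 0.02.

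The medians of all 4 complexes were above 0 in Ctrl 1 and dKO 2 and below 0 in the other libraries, and complex IV had the widest range, from -0.31 in Ctrl 2 to 0.29 in dKO 2. It was also wider in short transcripts. Members under 1000 bases had medians of 0.20, -0.20, -0.15 and 0.22 in Ctrl 1, Ctrl 2, dKO 1 and dKO 2, and longer members 0.05, -0.03, -0.09 and 0.02. All tested genes under 1000 bases had 0.02, -0.08, -0.0013 and 0.15. The part of transcript length in this order was not tested.

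**Figure D4:**
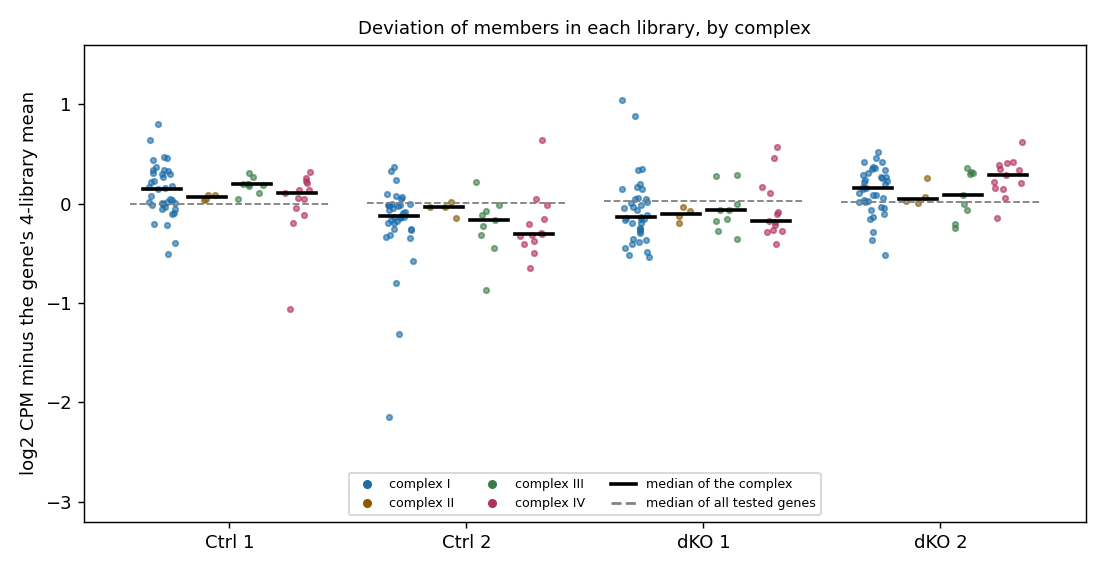
Log2 CPM of each tested member minus its mean over the 4 libraries (y axis), by library and complex, with black bars at the median of each complex and a dashed line at the median of all tested genes. The median of every complex lies above the dashed line in Ctrl 1 and dKO 2 and below it in Ctrl 2 and dKO 1.

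**Figure D5:**
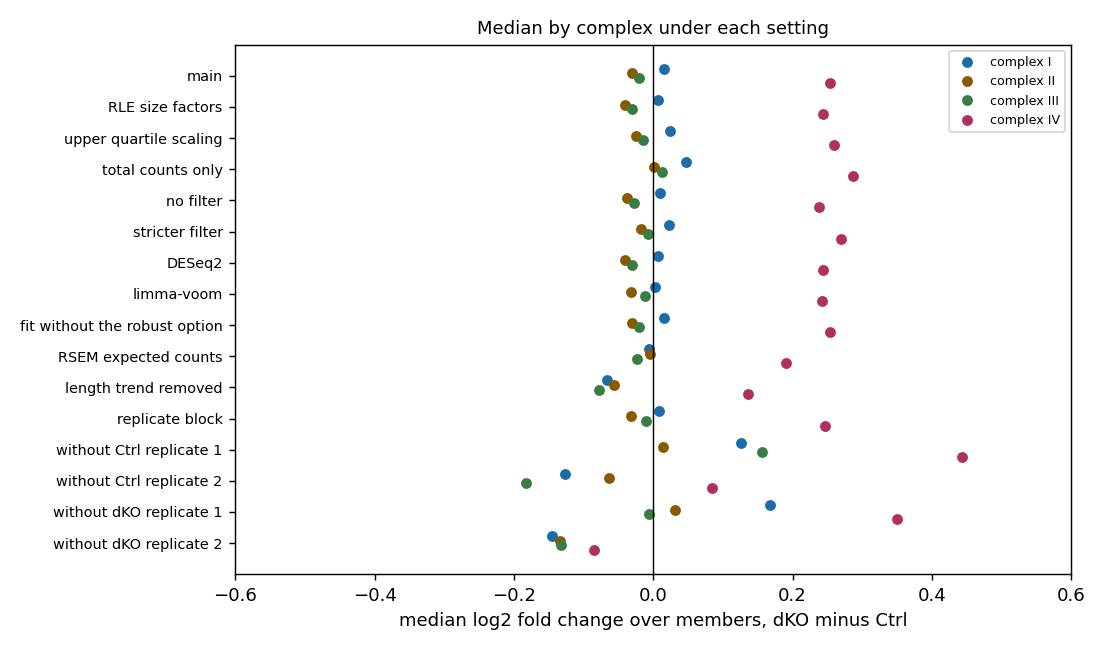
Median log2 fold change of the members of each complex (x axis) under the reported fit and each other setting (y axis). Complexes I to III stay within -0.18 and 0.17, and complex IV is above 0 in all settings but the one without dKO replicate 2, where it is -0.09.

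The fold changes can also be set beside the promoter letters. The 11 with CCGGAAG had a median log2 fold change of 0.04, with 8 above 0 and a range of -0.07 to 0.80, and the 41 tested members whose windows lack it had a median of 0.02, with 22 above 0. For the shorter CGGAAG the medians were 0.07 in 18 members and 0.02 in 34. None of the 4 members whose sequences are printed passed the test.

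Other genes of the same pathway also gave no call. Of 46 tested assembly factors, which build the complexes but are not part of them, 0 were called in edgeR and the unadjusted p was under 0.05 for 2. These were Surf1, an assembly factor of complex IV (log2 fold change 0.52, SE 0.21, adjusted p = 0.428), and Lrpprc, which stabilises mitochondrial messenger RNA (-0.51, SE 0.17, adjusted p = 0.322). The median over the 46 was 0.06. Lrpprc stood at 131 and 110 CPM in Ctrl against 88.2 and 81.4 CPM in dKO, and Surf1 at 30.7 and 24.6 CPM against 40.0 and 39.2 CPM. In both the groups did not overlap. The 16 ATP synthase genes had a median of -0.04, with 0 called and 0 at an unadjusted p under 0.05 in edgeR.

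The mitochondrially encoded partners of these subunits shared the members' order of the dKO libraries, but not that of the Ctrl libraries. Ctrl 1 was above Ctrl 2 in 3 of the 10 tested, and dKO 2 above dKO 1 in all 10. Of 10 tested, all had their lowest level in dKO 1 and 9 their highest in dKO 2, with median deviations of -0.02, 0.06, -0.55 and 0.45 on the log2 scale in Ctrl 1, Ctrl 2, dKO 1 and dKO 2. Their median log2 fold change was 0.0024, with 0 called and 0 at an unadjusted p under 0.05 in edgeR. Among 10 genes known as regulators of respiratory genes, Gabpb2 was the only call. Nrf1 (log2 fold change -0.06, SE 0.16), Tfam (-0.13, SE 0.19) and Esrra (0.24, SE 0.26) did not pass. The coactivators of the PGC-1 family lay on both sides of 0, and none passed: Pprc1 had -0.63 (SE 0.22, adjusted p = 0.356), Ppargc1b -0.17 (SE 0.36) and Ppargc1a 0.90 (SE 0.42, adjusted p = 0.518).

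Members on the X chromosome are given apart because the groups differ in sex chromosome transcripts. Ndufb11 was at 51.7 and 40.1 CPM in the Ctrl libraries against 40.9 and 52.7 CPM in dKO, and Cox7b at 10.9 and 7.38 CPM in the Ctrl libraries against 8.15 and 11.4 CPM in dKO. Both had overlapping groups. Ndufa1 had only 18 and 3 counts in Ctrl and 23 and 7 in dKO, too few for a comparison. No member lay within 5 Mb of the targeted genes. The nearest were Cox4i2, 26.1 Mb from Gabpb1 on chromosome 2, and Ndufc1, 43.8 Mb from Gabpb2 on chromosome 3.

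For Ndufb6 and Cox5a the whole-number counts were low beside the RSEM expected counts. Ndufb6 had 22 and 1 counts in Ctrl and 22 and 15 in dKO, but 65 and 62 expected counts in Ctrl and 42 and 61 in dKO. Its ratio was 0.13 times the typical ratio, and on GRCm38 the gene overlaps Smim27 on the opposite strand. Cox5a, at 0.31 times the typical ratio, overlaps Gm26631 on the opposite strand. Its counts were 1236 and 865 in Ctrl and 802 and 910 in dKO, and its expected counts 1957 and 1346 in Ctrl and 1174 and 1435 in dKO. Neither differed between the groups at the threshold by either way of counting. Overlaps are common among the members: 29 of the 70 overlap another gene on GRCm38, 20 of them a protein-coding one. Among these, Ndufs3 was at 1.02 and Ndufa3 at 2.30 times the typical ratio. Whether an overlap changes the counts was not tested.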

How the data were processed

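RNA of 4 libraries was analysed, 2 per group. Per the submitters' processing notes, reads were handled with TopHat2 2.1.1, Trimmomatic 0.36, FastQC 0.11.5, HTSeq 0.6.1, RSEM 1.3.0 and DESeq2 1.32.0 on the mm9 build. Their roles, settings, annotation and strandedness: not given in the sources used here. One deposited file per library gives whole-number gene counts, whose closing lines carry the names htseq-count gives them. Per the file headers, the second set of deposited files holds RSEM expected counts, TPM and mean transcript lengths.

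Reads assigned to no feature (18.1% to 24.3%) or ambiguous (2.20% to 2.34%) were left out of library sizes. Counts were filtered with filterByExpr (minimum count 10), scaled by TMM and tested with edgeR 4.0.16 (quasi-likelihood, R 4.3.3), with Benjamini-Hochberg adjustment over all 13904 genes and a threshold of 0.05. TPM was used to compare levels between genes and to give the share of each isoform per library, and was not tested between the groups. CPM values are TMM-scaled, except the summed levels of cell type markers, which are scaled to total gene counts alone. The 95% intervals used the fit's total degrees of freedom. The scripts were tested on simulated data. Alternatives were other scalings, no filter, a stricter filter, DESeq2 1.42.0, limma-voom (limma 3.58.1), a fit without the robust option, rounded RSEM expected counts, a length correction, a replicate block, and leaving out each library.

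Named members were the 4 with the smallest p in complexes I, III and IV, all of complex II, Cycs, the highest and lowest TPM per complex, isoform sets, X-linked members, neighbours of the targeted genes, and members with a low ratio of whole-number to expected counts. Others were named to give a group's membership. The values of 1 member that the rule names are not reported here. The members, the lists and this rule were chosen with earlier results of these data known. Gene positions are from GENCODE M21 (GRCm38) and promoters from RefSeq (GRCm38.p6), not mm9.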

Additional observations from a re-analysis of the deposited data

How the results depend on the processing

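No respiratory chain member was called under any alternative run, and the adjusted p of Cox5b ranged from 0.0845 (no filter) to 0.620 (RSEM expected counts). Over all genes, the reported edgeR fit called 85, DESeq2 395, a fit with no filter 559, one with a stricter filter 148, and leaving out Ctrl replicate 2 gave 187. Libraries of the same replicate number showed no shared deviation from their group means over all genes (correlation -0.05). With 2 libraries a group, this cannot tell whether they were collected or handled together. A replicate block gave 0 member calls and 100 over all genes. Leaving out 1 library at a time took the median across 0 in every complex (I -0.15 to 0.17, II -0.13 to 0.031, III -0.18 to 0.16, IV -0.086 to 0.44) and over all members (-0.14 to 0.17). It also raised the members whose groups did not overlap from 14 to between 35 and 44. Groups separate more easily when 1 library stands against 2, so a rise comes with the design. It is not read as a result about the members, and no share over all tested genes is given for these fits. Whether the rise differs from that of other genes is therefore not known. No filter moved the median of all genes to 0.10. The sign of uncalled members near 0 changed in some settings, and the cause was not tested: Cox6b1 (-0.0074) and Ndufb11 (-0.041) with the length trend removed; Ndufa10 (0.047), Ndufb6 (-0.16) and Sdha (0.012) with RSEM expected counts; Sdha also with total counts (0.021) and a stricter filter (0.0018). Leaving out 1 library gave ranges that cross 0 for Cox4i1 (-0.062 to 0.53), Cox5a (-0.40 to 0.076), Cox6a1 (-0.32 to 0.19), Cox6a2 (-0.55 to 0.022), Cox6b1 (-0.23 to 0.48), Cox6b2 (-0.47 to 1.95), Cox7a2l (-0.11 to 0.78), Cox7b (-0.17 to 0.40), Cox8a (-0.0041 to 0.51) and Cycs (-0.47 to 0.047). They did so too for Ndufa1 (-0.41 to 2.34), Ndufa10 (-0.26 to 0.20), Ndufb11 (-0.17 to 0.22), Ndufb6 (-0.13 to 4.12), Ndufv3 (-0.0078 to 0.45), Sdha (-0.045 to 0.022), Sdhb (-0.15 to 0.043), Sdhc (-0.18 to 0.28) and Uqcrq (-0.072 to 0.44). In these fits the lone library of a group is assumed to vary like the other group. Members with few counts, such as Ndufa1, Ndufb6 and Cox6b2, allow differences over 2-fold at this depth.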
